A study of Mus musculus with 28 samples.

Results

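The genes described here are 8 members of the neurexin, neuroligin and cerebellin families: the neurexins Nrxn2 and Nrxn3, the neuroligins Nlgn1, Nlgn2 and Nlgn3, and the cerebellins Cbln1, Cbln2 and Cbln4. They were taken by gene symbol from tables that list 23038 genes, and all 8 were present in all 28 tables. The libraries were polyA-selected RNA-seq libraries of dissected tissue from mice on a C57BL/6J background. Nova1hu/hu mice are homozygous for a germline knock-in that changes 1 isoleucine of the neuronal splicing factor NOVA1 to the valine of the human protein, and Nova1wt/wt mice carry the mouse allele. There were 6 libraries per genotype from midbrain at E18.5 (E, embryonic day), 4 per genotype from midbrain at P21 (P, postnatal day) and 4 per genotype from cortex at the same age. The study's methods describe pairs of male and female animals in equal number, and the labels do not give the sex of a library. The tables count reads per gene, so they do not carry the base change of the knock-in, and the choice of exons within a transcript was not measured here.

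Neurexins are transmembrane proteins of the presynaptic side that bind many partners across the synaptic cleft. Neuroligins are their classic postsynaptic ligands: neuroligin 1 is known mainly from excitatory synapses, neuroligin 2 from inhibitory synapses, and neuroligin 3 from both. Cerebellins are secreted proteins of the C1q family that bind presynaptic neurexins, and some of them link neurexins to the delta glutamate receptors on the postsynaptic side. Cerebellin 1 is best known as the product of cerebellar granule cells that holds parallel fibre synapses on Purkinje cells, while cerebellins 2 and 4 are made by neurons of other brain regions.

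The genes differ greatly in size. In the mouse assembly GRCm38.p6, Nrxn3 lies at chr12:88722701-90334935 and spans 1612 kb, while Nrxn2 lies at chr19:6418756-6533217. Nlgn1 lies at chr3:25421808-26332866, Nlgn2 at chr11:69823123-69837784 and Nlgn3 at chrX:101299179-101321350. Cbln1 lies at chr8:87468853-87472592 and spans 3.74 kb. Cbln4 lies at chr2:172036336-172043466. These 7 and Cbln2 are annotated as protein-coding, and reads from every start site of a gene enter 1 count.

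RefSeq promoter windows of GRCm38.p6, from 250 bases before to 50 bases after an annotated start, were at hand for 4 of the 8 members (Nrxn3, Nlgn1, Nlgn2 and Cbln4) and for 7 of their starts. The 4 windows below include those of the members with a window whose levels moved most with age (Nlgn1) or region (Cbln4). The others belong to the neuroligin with the highest level (Nlgn2) and to 1 of the 3 Nrxn3 starts that had a window. Capitals mark each CG, a dinucleotide that reads the same on both strands.
Cbln4, chr2:172043417-172043716, minus strand: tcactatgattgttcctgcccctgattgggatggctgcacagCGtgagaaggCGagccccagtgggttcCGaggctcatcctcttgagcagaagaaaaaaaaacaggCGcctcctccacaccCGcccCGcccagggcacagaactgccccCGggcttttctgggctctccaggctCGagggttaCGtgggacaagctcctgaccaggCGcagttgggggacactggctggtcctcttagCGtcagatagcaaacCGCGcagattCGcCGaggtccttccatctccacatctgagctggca
Nlgn1, chr3:26331860-26332159, minus strand: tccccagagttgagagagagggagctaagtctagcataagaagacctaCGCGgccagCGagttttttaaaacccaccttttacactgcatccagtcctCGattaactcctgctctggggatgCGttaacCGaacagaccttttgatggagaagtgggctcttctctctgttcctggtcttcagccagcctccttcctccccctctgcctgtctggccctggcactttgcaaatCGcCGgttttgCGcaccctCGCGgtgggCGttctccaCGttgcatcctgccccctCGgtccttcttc
Nlgn2, chr11:69837735-69838034, minus strand: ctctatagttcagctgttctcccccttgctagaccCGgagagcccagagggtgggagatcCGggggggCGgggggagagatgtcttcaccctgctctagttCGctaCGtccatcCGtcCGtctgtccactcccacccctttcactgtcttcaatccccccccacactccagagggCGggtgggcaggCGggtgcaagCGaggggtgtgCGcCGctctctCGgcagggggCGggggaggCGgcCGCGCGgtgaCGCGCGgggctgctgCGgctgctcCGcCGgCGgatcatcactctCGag
Nrxn3, chr12:89812233-89812532, plus strand: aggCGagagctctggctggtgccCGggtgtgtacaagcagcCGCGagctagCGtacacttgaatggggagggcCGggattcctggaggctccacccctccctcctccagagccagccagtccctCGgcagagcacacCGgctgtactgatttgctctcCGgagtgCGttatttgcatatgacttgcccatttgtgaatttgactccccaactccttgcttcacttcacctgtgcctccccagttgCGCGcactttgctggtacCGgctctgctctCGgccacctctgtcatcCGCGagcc
The Nlgn2 window held 26 CG, more than 83.1% of the 32851 windows of the table, in which the median was 7 and 94.6% held at least 1. The windows of Cbln4, Nlgn1 and Nrxn3 shown above held 15, 14 and 16. At the other starts with a window Nlgn1 had 6, and Nrxn3 had 2 and 6. The letters CANNTG, the general form of an E-box, stood 5 times in the Nrxn3 window, 2 times in that of Cbln4, 1 time in that of Nlgn2 and nowhere in that of Nlgn1. Of all windows, 72.3% held CANNTG at least 1 time.

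The tissue labels were set beside marker genes. Midbrain transcription factors En1, En2, Pax7, Pou4f1 and Gata3 had mean levels between 3.14 and 30.8 TPM (counts per transcript length, scaled to the same sum in every library) in the midbrain groups and at most 0.28 in cortex. The cortical gene Emx1 had a mean of 28.5 TPM in cortex against 0.11 in P21 midbrain. Other lists also differed: the summed TPM of 5 hypothalamic genes was 328 to 420 in P21 midbrain and 1.57 to 33.0 in cortex, that of 5 thalamic genes was 293 to 377 against 40.3 to 48.4, and that of 5 striatal genes was 75.1 to 88.6 against 680 to 838. Total counts per library ran from 18550922 to 45134998. The sum of 5 choroid plexus genes varied widely between libraries of 1 group, from 87.2 to 3708 TPM at E18.5 and from 20.2 to 3047 TPM in P21 midbrain.

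All 8 genes were well above the detection limit in every library, with the fewest reads for Cbln4 in cortex (244 to 363 counts) and 9241 to 20902 counts for Nrxn2 over the 28 libraries. In E18.5 midbrain the order of mean TPM was Nrxn2, Nlgn2, Cbln2, Nlgn3, Cbln1, Nrxn3, Cbln4 and Nlgn1. Nrxn2 stood at 178 ± 18.2 (SD, n = 12), above 95.2% of the genes listed above 0, and Nlgn1 at 31.1 ± 2.65. Neighbours in this order were compared within libraries by a 2-sided exact sign-flip test, and each of the 7 pairs held in at least 10 of 12 libraries, with p from 0.000488, the smallest possible, to 0.00293.

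In P21 midbrain Nrxn2 (126 ± 5.22 TPM, n = 8) and Nlgn2 (110 ± 2.70) were again at the top, and Cbln2 had dropped below Cbln1. Nrxn3 (51.8 ± 1.78) and Cbln1 (49.6 ± 3.72) did not differ beyond their spread, since Nrxn3 was higher in 5 of 8 libraries (exact p = 0.180). In P21 cortex it was Nlgn2 (143 ± 5.19 TPM) and Nrxn2 (141 ± 6.64) that could not be ordered (7 of 8 libraries, exact p = 0.211), and Cbln1 (12.1 ± 0.739) and Cbln4 (9.70 ± 1.09) closed the list. The remaining pairs of neighbours at P21 held in at least 7 of 8 libraries, with exact p between 0.00781, the smallest possible, and 0.0313. Of the 8 genes Nlgn1 was the lowest in both midbrain groups and Cbln4 in cortex.

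**Figure D1:**
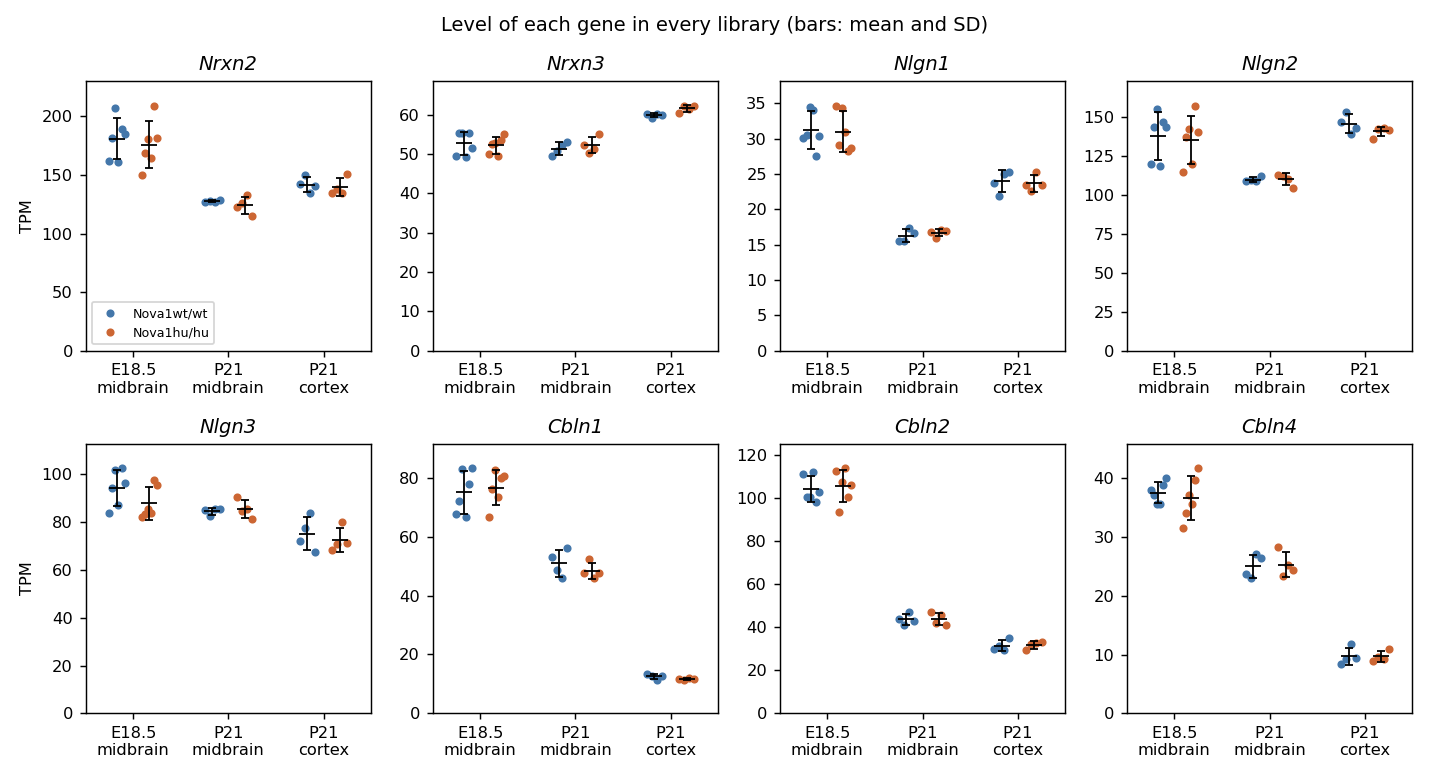
Level of each gene (TPM, vertical axes from 0) in every library of P21 cortex and of midbrain at both ages, blue for Nova1wt/wt and orange for Nova1hu/hu, with bars for the mean and SD. The genotypes overlap in every panel and group except Nrxn3 in cortex, and Cbln1 steps from 75.8 to 49.6 to 12.1 TPM and Cbln2 from 105 to 43.8 to 31.6 TPM.

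The first question was whether the human-type NOVA1 changed the amount of these transcripts. None of the 8 members was called between Nova1hu/hu and Nova1wt/wt libraries in any of the 3 tissues, where a call in edgeR's quasi-likelihood test needed an unadjusted p under 0.05 together with one under 0.1 after Benjamini-Hochberg adjustment over all genes. The background was the same: 0.0% of 15540 genes in E18.5 midbrain, 0.0% of 15972 in P21 midbrain and 0.0% of 15767 in P21 cortex were called, with 201, 426 and 450 genes at an unadjusted p under 0.05 and none of the 8 members among them. DESeq2 also called 0 genes in each tissue, with 296, 413 and 417 at an unadjusted p under 0.05. The 24 log2 fold changes of the members lay between -0.10 and 0.04, and their 95% intervals between -0.28 and 0.23.

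Nlgn3, an X-linked neuroligin, had the largest of these differences. At E18.5 its level ran from 83.5 TPM through a median of 95.3 to 102 in the 6 Nova1wt/wt libraries, and from 81.9 through 84.5 to 97.3 in the 6 Nova1hu/hu libraries. The ranges overlapped, and the Nova1hu/hu library was the lower in 6 of 6 pairs with the same replicate number. The log2 fold change was -0.10 (SE 0.057, unadjusted 0.0858, adjusted p = 1.0, edgeR). A block for the replicate number brought the unadjusted value to 0.0101 and the adjusted one to 0.928, where 5.23% of all genes had an unadjusted p under 0.05. At P21 the Nlgn3 values were 0.02 (SE 0.040) in midbrain and -0.05 (SE 0.065) in cortex. The difference of its genotype effect between the ages was 0.13 (SE 0.080, unadjusted 0.126, adjusted p = 1.0, edgeR).

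Nrxn3 in P21 cortex was the 1 case in which the libraries of the genotypes did not overlap. The Nova1wt/wt libraries stood at 60.2, 59.2, 60.3 and 59.9 TPM and the Nova1hu/hu libraries at 60.4, 62.4, 61.5 and 62.2 TPM. The gap between the groups was narrow, and the log2 fold change was 0.04 (SE 0.034, unadjusted 0.213, adjusted p = 1.0, edgeR). The 2-sided exact permutation test of log2(TPM + 0.5) gave p = 0.0286, the smallest that 4 against 4 libraries allow, with no adjustment for the 8 genes tested in each tissue. Over all 15540 genes with a mean of at least 1 TPM, 2.03% did not overlap in P21 cortex, 1.95% in P21 midbrain and 0.0515% in E18.5 midbrain, and in the last 2 none of the members was among them.

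Cbln1 had the lowest estimates at P21, with log2 fold changes of -0.07 (SE 0.064) in midbrain and -0.10 (SE 0.084) in cortex. In cortex the Nova1wt/wt libraries stood at 13.4, 12.8, 11.4 and 12.7 TPM and the Nova1hu/hu libraries at 11.8, 11.3, 12.0 and 11.7 TPM. These ranges overlapped (exact permutation p = 0.114). In P21 midbrain the Nova1wt/wt values were 53.1, 48.6, 46.0 and 56.0 TPM and the Nova1hu/hu values 47.7, 52.3, 45.8 and 47.5 TPM, also overlapping (exact permutation p = 0.314).

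Genes of cerebellar granule cells also had lower means in Nova1hu/hu than in Nova1wt/wt P21 midbrain. Cbln3, the cerebellin of that cell type, stood at 2.31, 5.38, 0.651 and 7.04 TPM in the Nova1wt/wt libraries and at 1.06, 2.33, 0.700 and 2.001 TPM in the Nova1hu/hu libraries. Gabra6, a GABA receptor subunit of granule cells, stood at 2.30, 5.58, 0.208 and 7.07 TPM against 0.438, 2.67, 0.186 and 1.73 TPM. The log2 fold change of Cbln3 was -1.34 (SE 0.488, unadjusted 0.0151, adjusted p = 1.0, edgeR). Under a block for the replicate number it was 1 of 4 genes called over the whole table (adjusted p = 0.0388, edgeR). Gabra6 was another of these, with the same adjusted p. Without the block its log2 fold change was -1.57 (SE 0.672, unadjusted 0.0340, edgeR). Fat2 (-0.60), Pcp2 (-0.51) and Car8 (-0.23) of the same marker list were also lower without the block (unadjusted 0.0107 to 0.0233, edgeR). Barhl1 and Calb1 had -0.05 each. The summed level of the 7 cerebellar markers was 113 to 133 TPM in Nova1wt/wt and 102 to 117 TPM in Nova1hu/hu P21 midbrain, with all 7 above 1 TPM on average and none at 0. Calb1, which cortex also expresses (a mean of 133.6 TPM there), made up most of this sum, with a mean of 88.5 TPM in P21 midbrain. The library with the least Gabra6 (0.186 TPM) also had the least Cbln1 (45.8 TPM), and that with the most Gabra6 (7.07 TPM) the most Cbln1 (56.0 TPM). Between these extremes the order did not hold. Nova1wt/wt 2, with 5.58 TPM of Gabra6, had 48.6 TPM of Cbln1, and Nova1wt/wt 1, with 2.30 TPM of Gabra6, had 53.1 TPM. The part of such cells in the Cbln1 values was not tested.

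Among 42 other genes of the pathway (ligands, receptors, inhibitors, scaffolds and splicing factors of neurexins) none was called for genotype in edgeR, with 41, 42 and 40 tested in the 3 tissues and 0 at an unadjusted p under 0.05 in each. Without the block, the smallest p at E18.5 belonged to Clstn2, a calsyntenin (log2 fold change -0.11, SE 0.058, unadjusted 0.0837). In P21 midbrain it belonged to Fam19a4, a secreted protein that binds neurexins (-0.26, SE 0.123, unadjusted 0.0521). In P21 cortex it belonged to the delta receptor gene Grid1 (-0.07, SE 0.037, unadjusted 0.0893). Interactions of genotype with age and with region were called for none of the 8 members and for 0 genes in all, with 303 and 373 genes at an unadjusted p under 0.05.

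**Figure D2:**
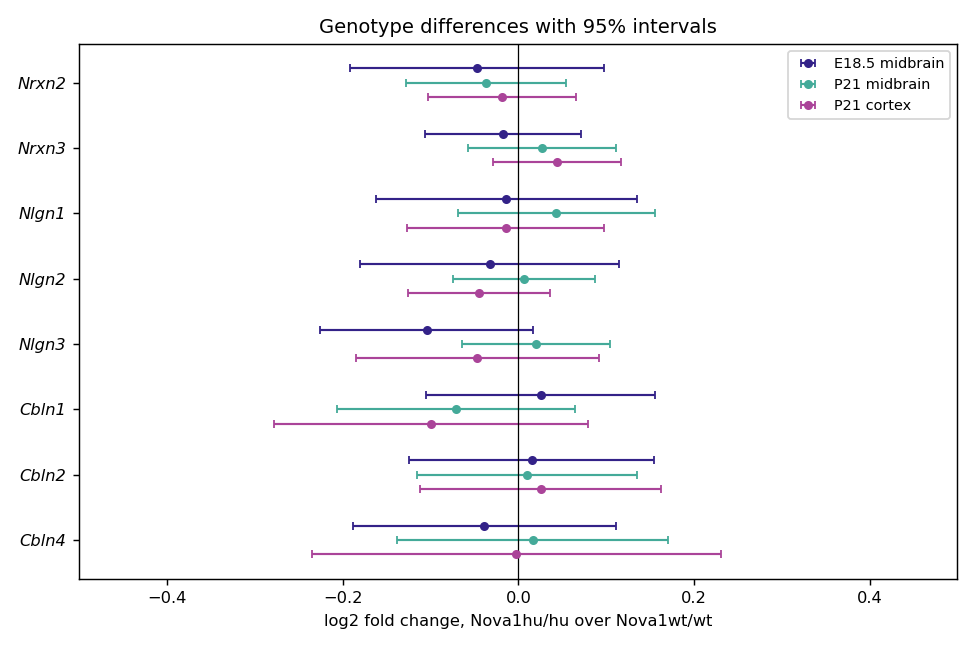
Log2 fold change of Nova1hu/hu over Nova1wt/wt (horizontal axis) for each gene in P21 cortex and P21 midbrain (4 libraries per genotype each) and E18.5 midbrain (6 per genotype), from edgeR, with bars for the 95% interval. Every interval of this fit, which has no block for the replicate number, crosses 0. The lowest estimate is that of Nlgn3 at E18.5, -0.10, which with the block had an unadjusted p of 0.0101 and an adjusted one of 0.928 (edgeR).

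Differences with age were several times larger for most of these genes. From E18.5 to P21 midbrain the cerebellins and Nlgn1 fell: Cbln2 by 1.06 on the log2 scale (SE 0.049), Nlgn1 by 0.71 (SE 0.050), Cbln1 by 0.40 (SE 0.048) and Cbln4 by 0.35 (SE 0.052). Nrxn2 fell by 0.30 (SE 0.047). All 8 members were called in edgeR with genotype as a covariate, 6 lower and 2 higher at P21, where 85.9% of 16100 genes were called, 43.2% as higher at E18.5 and 42.6% as higher at P21. Only Cbln2 passed 2-fold, and 14.4% of all genes were called and at least 2-fold higher at E18.5 while 15.8% were so at P21. The median log2 fold change was -0.33 over the 8 members and -0.01 over all genes.

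Cbln2 stood at 98.2, 102 and 112 TPM (lowest, median and highest of 6) in the Nova1wt/wt libraries at E18.5 and at 93.8, 107 and 114 TPM in the Nova1hu/hu libraries. At P21 it stood at 43.8, 41.0, 47.0 and 42.9 TPM in Nova1wt/wt midbrain and at 47.0, 41.8, 45.5 and 41.0 TPM in Nova1hu/hu midbrain. The 12 younger libraries were all above the 8 older ones, with a mean TPM 2.40-fold higher. The edgeR log2 fold change of Cbln2, P21 over E18.5, was -1.06 (adjusted p = 7.60e-17). Nlgn1 was at 27.5 to 34.7 TPM at E18.5 and at 15.5 to 17.4 TPM in P21 midbrain, again without overlap. Its mean TPM was 1.89-fold higher in the younger tissue, and its edgeR log2 fold change was -0.71 (adjusted p = 6.54e-13). Cbln1 went from 66.6 to 83.2 TPM down to 45.8 to 56.0 TPM and Cbln4 from 31.5 to 41.6 TPM down to 23.1 to 28.2 TPM. In TPM the libraries of the ages did not overlap for 6 of the 8 members, against 61.7% of all genes.

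The smaller changes depended on how libraries were scaled. Over the genes tested, the median log2 change from E18.5 to P21 was -0.01 with the trimmed-mean (TMM) factors of edgeR, -0.17 on library totals and -0.20 in TPM, so that a gene with no change in TPM was higher at P21 relative to most genes. Nrxn3 was such a gene: it stood at 52.5 ± 2.51 TPM (n = 12) and 51.8 ± 1.78 TPM (n = 8), and its fold change was 0.19 (SE 0.029, adjusted p = 2.05e-06, edgeR) with TMM factors and 0.03 (adjusted p = 0.392) on library totals. Nlgn3 turned direction, with 0.11 (SE 0.040, adjusted p = 0.0146, edgeR) with TMM factors, -0.05 (adjusted p = 0.215) on library totals and a mean TPM of 91.0 ± 7.68 against 85.0 ± 2.66. Nlgn2 fell by 0.11 (SE 0.047, adjusted p = 0.0393, edgeR) with TMM factors. In TPM it was a mean 1.24-fold higher at E18.5 without overlap of the libraries, a log2 difference of -0.30 (exact permutation p = 1.59e-05). The edgeR call was lost in the Nova1wt/wt libraries alone (-0.13, unadjusted 0.0591) and in the Nova1hu/hu libraries alone (-0.07, unadjusted 0.314). It was also lost with no filter (-0.095, unadjusted 0.0524). A block for the replicate number, which pairs no libraries across the ages, ended it too (-0.046, unadjusted 0.211). At -0.11 to -0.089 (unadjusted 0.0501 to 0.0655) it was lost when E18.5 Nova1hu/hu 5, Nova1wt/wt 3 or 5, or P21 midbrain Nova1hu/hu 4, Nova1wt/wt 1 or 3 was left out.

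The spread of Nlgn2 and Nrxn2 at E18.5 lay mostly between replicate numbers rather than within them. Nlgn2 was at 114.9, 119.9, 120.0 and 118.5 TPM in the libraries numbered 1 and 4 of both genotypes and between 137.5 and 157.5 TPM in the other 8. The same 4 libraries were the lowest for Nrxn2 and Nrxn3 and the highest for Cbln2, at 111.0 to 113.9 TPM against 93.8 to 107.4 TPM. What set these libraries apart is not given in the labels. Their total counts were 18550922 to 21016602, and those of the other 8 were 20985852 to 35047494. The part of depth in these values was not tested.

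Markers of other cell types also differed between the ages. The summed TPM of 5 oligodendrocyte genes was 58.2 to 81.9 at E18.5 and 19815 to 22304 in P21 midbrain, and that of 5 astrocyte genes rose from 545 to 842 up to 3410 to 3828, with none of these genes at 0. In bulk tissue, fewer cells of a type and less RNA per cell cannot be told apart, and the part of the glial genes in the members' fall was not tested. Age and anything else that was done at another date cannot be told apart either.

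Of the 3 families, the neuroligins were split between the regions. At P21 the neurexins and the neuroligins Nlgn1 and Nlgn2 were higher in cortex than in midbrain, by 0.24 (Nrxn2, SE 0.029), 0.31 (Nrxn3, SE 0.024), 0.61 (Nlgn1, SE 0.039) and 0.46 (Nlgn2, SE 0.026) on the log2 scale. All 3 cerebellins were lower in cortex: Cbln1 fell by 1.96 (SE 0.048), Cbln4 by 1.30 (SE 0.065) and Cbln2 by 0.39 (SE 0.042). Nlgn3 fell by 0.13 (SE 0.041), apart from the other neuroligins. All 8 were called in edgeR, 4 in each direction, where 76.0% of 16129 genes were called, 37.9% as higher in cortex and 38.1% as higher in midbrain. Cbln1 and Cbln4 passed 2-fold, and 7.66% of all genes were called and at least 2-fold higher in midbrain while 7.44% were so in cortex.

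Cbln1 was the member with the largest regional difference. It stood at 45.8 to 56.0 TPM in the 8 midbrain libraries and at 11.3 to 13.4 TPM in the 8 cortex libraries. Its mean TPM was 4.09-fold higher in midbrain, and its edgeR log2 fold change, cortex over midbrain, was -1.96 (adjusted p = 2.93e-21). Cbln4 stood at 23.6, 23.1, 27.0 and 26.4 TPM in Nova1wt/wt midbrain and at 28.2, 23.3, 25.2 and 24.3 TPM in Nova1hu/hu midbrain. In cortex its values were 8.36, 9.29, 11.7 and 9.49 TPM in Nova1wt/wt and 8.88, 9.66, 9.29 and 10.9 TPM in Nova1hu/hu. The regions did not overlap for either gene. The mean TPM of Cbln4 was 2.59-fold higher in midbrain, and its edgeR log2 fold change was -1.30 (adjusted p = 5.61e-15).

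Nlgn1 stood at 15.5, 15.5, 17.4 and 16.6 TPM in Nova1wt/wt midbrain and at 16.8, 15.9, 17.1 and 17.0 TPM in Nova1hu/hu midbrain. In cortex it stood at 23.8, 21.8, 25.004 and 25.4 TPM in Nova1wt/wt and at 23.4, 22.6, 25.3 and 23.4 TPM in Nova1hu/hu, all above the midbrain libraries. The libraries of the regions did not overlap in TPM for 7 of the 8 members, against 48.3% of all genes. The exception was Nlgn3, at 81.3 to 90.4 TPM in midbrain and 67.5 to 83.8 TPM in cortex, and its call was lost in the Nova1wt/wt libraries alone (-0.09, adjusted p = 0.189, edgeR).

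The age and region comparisons share the 8 P21 midbrain libraries, so their values are given side by side. Nlgn1 had -0.71 for age and 0.61 for region, and Nrxn2 had -0.30 and 0.24. Cbln2 had most of its change with age (-1.06 against -0.39), and Cbln1 (-0.40 against -1.96) and Cbln4 (-0.35 against -1.30) with region. Markers of other tissue differed between the regions as given above, and for the cerebellar list the summed TPM was 102 to 133 in P21 midbrain, with 7 of 7 genes above 1 TPM on average, and 139 to 158 in cortex, with 3 of 7 and Gabra6 at most 0.08. Oligodendrocyte genes summed to 19815 to 22304 TPM in midbrain and to 5725 to 6461 TPM in cortex, and astrocyte genes to 3410 to 3828 and 2437 to 2766 TPM. The part of hypothalamic, thalamic, striatal or glial cells in the members' regional values was not tested.

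**Figure D3:**
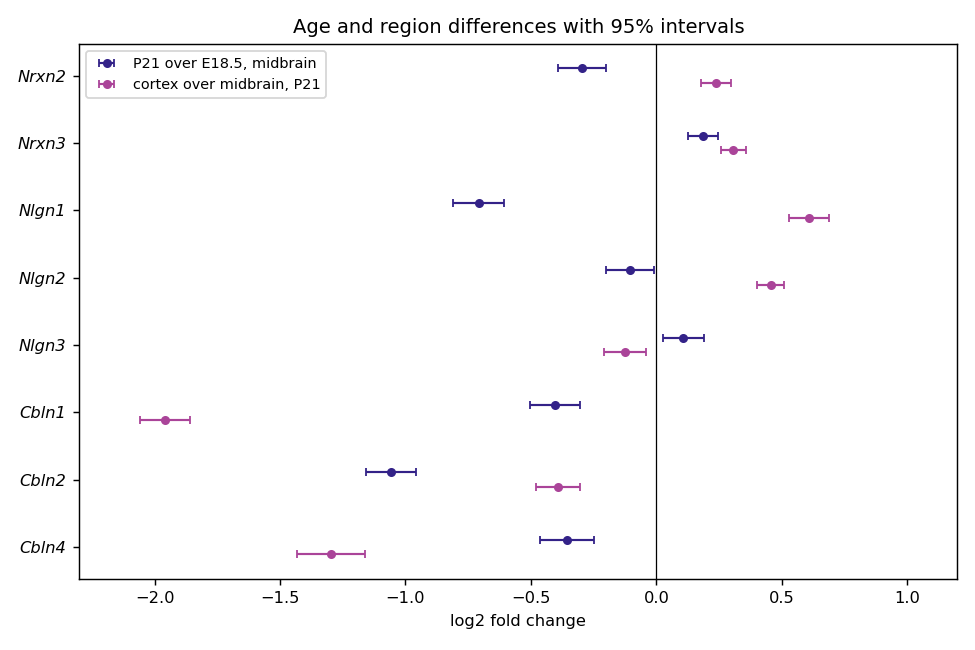
Log2 fold change of each gene between P21 and E18.5 midbrain (8 against 12 libraries) and between P21 cortex and P21 midbrain (8 against 8), from edgeR with TMM factors, with bars for the 95% interval. Cbln1 lies farthest from 0 for region (-1.96) and Cbln2 for age (-1.06), while Nlgn3 lies near 0 in both and changes direction with age on library totals.

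Because a share within a family does not depend on how libraries are scaled, the balance of paralogs was compared next. The summed TPM of the 4 cerebellins, Cbln3 included, fell from 218 ± 7.54 (n = 12) at E18.5 to 121 ± 5.38 (n = 8) in P21 midbrain and was 53.6 ± 2.32 (n = 8) in cortex. The 3 neuroligins summed to 259 ± 20.6, 212 ± 5.05 and 241 ± 8.41 TPM, and the 3 neurexins of the tables to 327 ± 25.8, 245 ± 6.08 and 294 ± 6.90 TPM.

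Cbln2 made up 48.1% ± 2.995 (n = 12) of the cerebellin sum at E18.5, 36.1% ± 2.26 (n = 8) in P21 midbrain and 58.9% ± 1.79 (n = 8) in cortex, and the libraries did not overlap in either comparison. Cbln1 took 34.7% ± 2.46, 40.9% ± 2.15 and 22.7% ± 1.69, so that its mean share passed that of Cbln2 in P21 midbrain alone. Cbln4 took between 14.9% and 22.7% in single libraries. Differences were tested by 2-sided exact permutation over libraries, 16 tests in all without adjustment, and those of Cbln1 and Cbln2 had the smallest p possible (1.59e-05 for age, 0.000155 for region). The share of Cbln4 rose by 3.798 percentage points with age (exact p = 1.59e-05) and differed by -2.65 points in cortex (exact p = 0.00932).

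Nlgn2 was the major neuroligin, with 52.7% ± 1.96 of the sum at E18.5, 52.0% ± 0.59 in P21 midbrain and 59.5% ± 1.67 in cortex. Its share did not differ detectably with age (-0.69 percentage points, exact p = 0.352), and it was 7.44 points higher in cortex (exact p = 0.000155). Nlgn3 took 35.2% ± 1.25, 40.2% ± 0.45 and 30.6% ± 1.61, and Nlgn1 12.1% ± 1.60, 7.80% ± 0.37 and 9.90% ± 0.62, each without overlap in both comparisons. Within libraries, Nlgn2 was 4.44 ± 0.699 times Nlgn1 at E18.5 (n = 12), 6.69 ± 0.369 times in P21 midbrain (n = 8) and 6.03 ± 0.486 times in cortex (n = 8).

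Nrxn2 made up 54.6% ± 1.497 of the neurexin sum at E18.5, 51.4% ± 1.67 in P21 midbrain (exact p = 7.94e-05) and 47.9% ± 1.29 in cortex (exact p = 0.000932). Nrxn3 took 16.1% ± 0.76 at E18.5 and 21.2% ± 0.89 in P21 midbrain without overlap (exact p = 1.59e-05). In cortex it took 20.7% ± 0.58, within the spread of the midbrain libraries (exact p = 0.219). Nrxn2 was 3.39 ± 0.247 times Nrxn3 at E18.5, 2.43 ± 0.161 times in P21 midbrain and 2.32 ± 0.121 times in cortex.

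**Figure D4:**
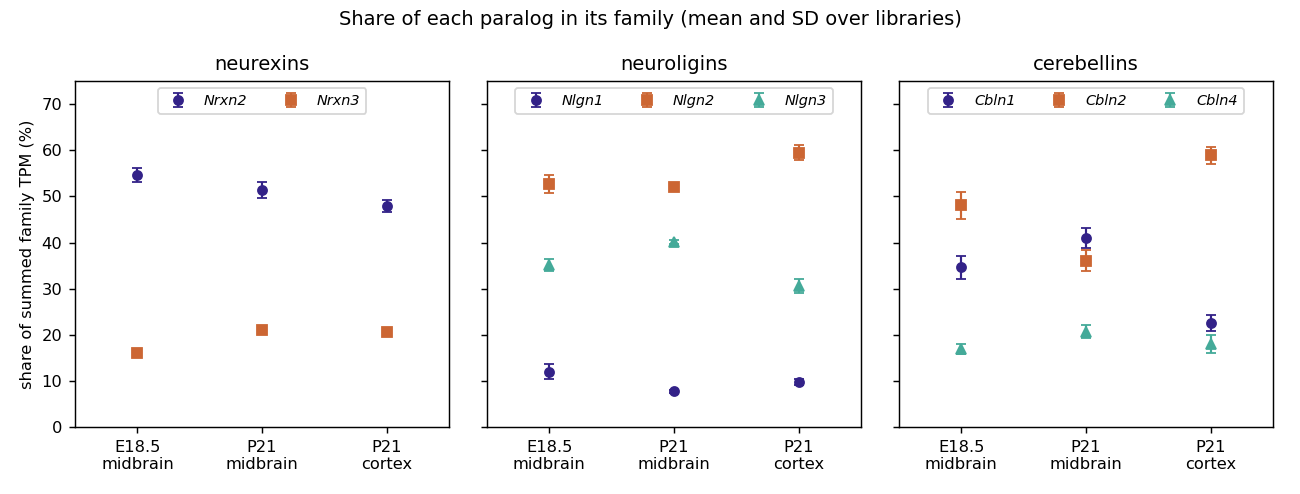
Share of each gene in the summed TPM of its family (percent, vertical axis) in P21 cortex and P21 midbrain (8 libraries each) and E18.5 midbrain (12), with points for the mean and bars for the SD. Cbln1 and Cbln2 exchange places in P21 midbrain (40.9% against 36.1%), while Nlgn2 holds the largest share of the neuroligins throughout.

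The other genes of the pathway moved in both directions. With age, 16 of 42 were called higher and 18 lower at P21 in edgeR, with a median log2 fold change of -0.06 against -0.01 over all genes. Of all genes 42.6% were called higher and 43.2% lower at P21, so these counts lay near the background. Of the 17 postsynaptic or secreted neurexin ligands, 8 were called higher, 5 lower and 4 were not called. All 3 splicing factors of neurexins and both neuroligin inhibitors were called lower. The inhibitors Mdga1 and Mdga2, which bind neuroligins and keep neurexins off, fell by 1.46 (SE 0.039) and 0.53 (SE 0.039) on the log2 scale, beside the fall of Nlgn1. Grid1, a delta receptor gene, rose by 0.52 (SE 0.042). The other large falls were those of Khdrbs2, a splicing factor that acts on neurexin transcripts (-1.23, SE 0.060), and Fam19a2 (-1.17, SE 0.036). The largest rises were those of Fam19a3 (1.90, SE 0.355, on 1 to 27 counts per library), the scaffold gene Lin7b (1.54, SE 0.081) and the secreted C1q protein gene C1ql1 (1.29, SE 0.077). Cbln3 rose by 2.19 (SE 0.366), from 0.167 to 1.13 TPM at E18.5 to 0.651 to 7.04 TPM at P21, with overlap, and the P21 libraries high in Cbln3 were those high in Gabra6.

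Between regions, 26 of 42 were called higher and 15 lower in cortex in edgeR, with a median of 0.35 against -0.00021 over all genes, where 37.9% and 38.1% of all genes were called in these directions. Of 7 postsynaptic scaffold genes 6 were higher and 1 lower, and of 17 ligands 10 were higher and 7 lower. Grid1 had a log2 fold change of 0.06 (SE 0.026, adjusted p = 0.0370, edgeR), while its mean TPM was 67.9 in midbrain and 67.3 in cortex, so its direction depended on the scale. Mdga1 had 0.10 (SE 0.036) and Mdga2 -0.34 (SE 0.042). The largest rises were those of Fam19a1 (1.79, SE 0.058), the neurexophilin gene Nxph3 (1.69, SE 0.058) and C1ql3 (1.58, SE 0.037). C1ql4 had 39 to 87 counts in each midbrain library and 0 or 1 in each cortex library. Fam19a4 fell by 3.35 (SE 0.154) and Nxph4 by 2.34 (SE 0.071), and Cbln3 went from 0.651 to 7.04 TPM in midbrain to 0.0813 to 0.401 TPM in cortex.

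**Figure D5:**
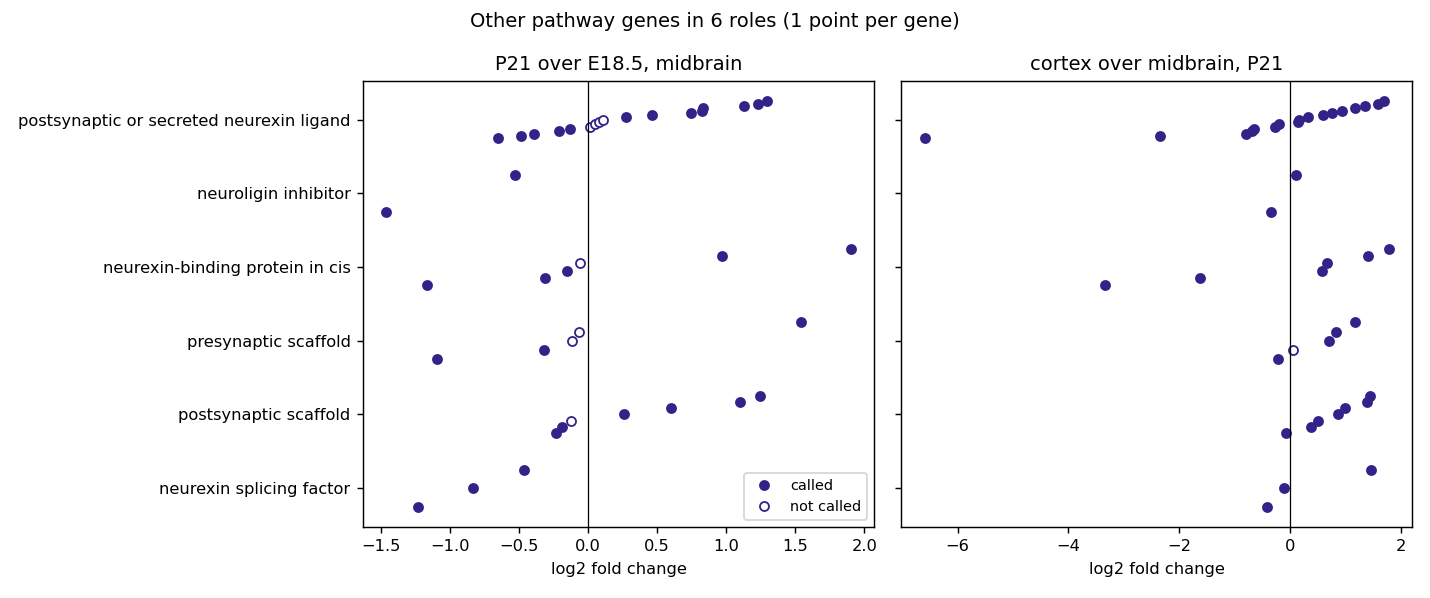
Log2 fold change of other pathway genes in 6 of the roles (vertical axis), for P21 over E18.5 midbrain and for P21 cortex over P21 midbrain, 1 point per gene, filled where edgeR called it. Both inhibitors and all 3 splicing factors lie below 0 with age, and 6 of 7 postsynaptic scaffold genes lie above 0 in cortex, while the ligand point farthest below 0 in cortex is C1ql4, which had 0 or 1 counts in each cortex library.

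Genes with profiles most like those of the members were named by the root mean square difference of centred log2(TPM + 0.5) values over the 28 libraries, among 15532 other genes with a mean of at least 1 TPM. The closest were Npdc1 (0.056) and Arhgap39 (0.066) for Nlgn2, Slitrk1 (0.063) and Egln1 (0.064) for Nrxn3, and Ubqln2 (0.064) and Mgat5b (0.068) for Nrxn2. Nlgn3 had B4galt5 (0.074) and Hgs (0.088), Nlgn1 had Actr3 (0.080) and Arpc5 (0.083), and Cbln2 had Ccdc50 (0.085) and Trp53bp1 (0.087). Cbln4 (Adamts15, 0.143, and Fat1, 0.146) and Cbln1 (Akap12, 0.163, and Cdh23, 0.167) had no neighbours as close. This measure is set mostly by the steps between the 3 tissues.

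After the mean of each tissue was taken out, the genes that varied most with a member were found by Pearson's r over the 28 libraries. All genes of a library share its depth and preparation. Nlgn2 went with Ptprn (r = 0.96) and Atp13a2 (0.95), and Nrxn2 with Bai2 (0.93) and Atn1 (0.92). The E18.5 libraries numbered 1 and 4 stood apart for both members, and r between Nrxn2 and Nlgn2 themselves was 0.95 at E18.5 (n = 12) but 0.58 in P21 midbrain and 0.62 in P21 cortex (n = 8 each). How far the pooled values rest on those libraries was not tested. The values were lower for Nlgn3 (L1cam, 0.84, and Hivep3, 0.80), Nlgn1 (Opa1, 0.84), Cbln1 (P2rx6, 0.80, and Fpgs, 0.79) and Nrxn3 (Ank2, 0.78, and Meg3, 0.77). Cbln2 (Bhlhb9 and A030009H04Rik, both 0.76) and Cbln4 (Flrt1, 0.68, and Gdf9, 0.66) had the loosest partners.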

How the data were processed

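Per the study's methods, the authors used OLego for alignment to mm10 and Quantas for counting reads per gene. Each deposited table gives estimated counts, exon length and RPKM. The annotation version and the use of strand are not given in the sources used here. edgeR and mm10 are named in the submitters' processing notes. Counts were rounded and tested with edgeR 4.0.16 (TMM factors, filterByExpr, quasi-likelihood, 2-sided), a fit tested on simulated counts, with DESeq2 1.42.0 as an alternative. TPM was computed from counts and exon length. Groups and replicate numbers came from sample titles. Same-numbered libraries of the genotypes deviated together (r from 0.252 to 0.499 over 6, 4 and 4 pairs), which the labels do not explain, and libraries of different ages (r from -0.18 to 0.19) or regions (-0.22 to -0.12) did not, so the block bears on genotype only. Nothing in the labels says that each library came from its own animal, so p-values measure the spread between these libraries. Intervals rest on 4 to 12 libraries a group. P21 cerebellum was not analysed here.

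The members and gene lists were chosen with earlier results of these data known. Named were all members and Cbln3, Grid1, Mdga1 and Mdga2, the 3 largest called changes in each direction among the 42 pathway genes, for genotype the pathway gene with the smallest p, and for each member its 2 nearest genes by each measure of likeness. A few genes that these rules name are not reported here. The other neurexin of the tables entered the family sums only. Gabra6 and the other markers came from marker lists. RefSeq tables matched 22959 of the 23038 gene IDs. Exact permutation tests used scipy 1.17.1 with a pseudocount of 0.5 TPM. These and the sign-flip tests took each library as 1 unit and did not pair same-numbered libraries of the genotypes. Alternatives were other factors, filters and thresholds, DESeq2, single genotypes, a replicate block and the omission of each library.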

Additional observations from a re-analysis of the deposited data

How the results depend on the processing

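The number of members called was, over the alternatives run, 0 for genotype in each tissue, 6 to 8 for age and 7 to 8 for region. Among the 8 members, calls were lost for Nlgn2 (age) with no filter, with the replicate block, in single genotypes and in 6 of 20 omissions. Calls were also lost for Nlgn3 (age and region) in Nova1wt/wt libraries alone, and for Nrxn3 (age) on library totals. Library totals with no scaling factors turned Nlgn3 for age to -0.050, an alternative chosen after seeing the data, as were the Nova1hu/hu libraries alone and the block in the interactions. CPM in place of TPM turned the share of Nlgn2 with age to 0.94 percentage points (exact permutation p = 0.265) and brought that of Nrxn3 in cortex to -0.84 (exact permutation p = 0.0218). The cause was not tested. Leaving out E18.5 libraries hu/hu 5, wt/wt 3 or wt/wt 5, or P21 midbrain libraries hu/hu 4, wt/wt 1 or wt/wt 3, ended the Nlgn2 call for age, and its log2 fold change ran from -0.12 to -0.089 over the 20 omissions.

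The replicate block (pairs by number) changed no call of a member for genotype, and it raised the genes called in P21 midbrain from 0 to 4 and those at an unadjusted p under 0.05 from 201, 426 and 450 to 813, 735 and 897. For age, where the numbers pair no libraries, a fit with the block called 7 members in place of 8, without Nlgn2. With the block Cbln4 for genotype in P21 cortex went from -0.0023 to 0.0018. Under the block the Nlgn3 interaction of genotype with age had an unadjusted value of 0.0324 (adjusted p = 0.995, edgeR). Omitting single libraries turned the sign of 12 uncalled genotype differences, whose log2 fold changes then ran, at E18.5, from -0.017 to 0.052 for Cbln2, from -0.055 to 0.023 for Nlgn1 and from -0.074 to 0.0052 for Nlgn2. In P21 midbrain they ran from -0.021 to 0.048 for Cbln2, from -0.035 to 0.056 for Cbln4, from -0.0070 to 0.033 for Nlgn2, from -0.0030 to 0.046 for Nlgn3 and from -0.075 to 0.00095 for Nrxn2. In P21 cortex they ran from -0.066 to 0.11 for Cbln4, from -0.059 to 0.014 for Nlgn1, from -0.10 to 0.018 for Nlgn3 and from -0.051 to 0.0064 for Nrxn2. Cbln4 in cortex rests on the fewest reads, and its interval for genotype was the widest.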
